A study of Mus musculus with 32 samples.

Results

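The effect of deleting Nampt in resting cartilage cells was read from 4 RNA sequencing libraries of primary mouse chondrocytes, out of 32 in the series. They were chosen by their labels: genotype NAMPT flox on strain C57BL/6, treatment GFP (2 libraries) or Cre (2 libraries), and no IL-1b. Sterna of NAMPT flox pups gave the cells, which stayed unpassaged in serum-containing medium at normoxia. All 4 libraries carry the floxed allele and all received adenovirus for 24 h, either one that expresses eGFP alone (GFP) or one that expresses Cre together with eGFP (Cre), followed by a further 24 h without cytokine. Every control is therefore a virus-treated floxed culture, and the untreated wild-type chondrocytes of the series (2 libraries) received no virus. Cre without floxed Nampt is seen only in the LDHA flox and NFKBIZ flox chondrocytes, in which Cre deletes another gene. The labels do not say that the 2 libraries of a group came from separate pups or cultures, so p-values measure only the spread between libraries. That spread was estimated over all 8 NAMPT flox libraries, those with IL-1b included, with information shared across genes. Differences between 2 library sets, read from the sample titles, were removed first. The 2 libraries of a group can therefore lie further apart than the fitted spread.

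NAMPT makes nicotinamide mononucleotide from nicotinamide and is the rate-limiting step of the salvage pathway that most mammalian cells use to keep their NAD level. The NMNAT enzymes then turn the mononucleotide into NAD. NAD accepts electrons in glycolysis and in the mitochondrion, and sirtuins, PARP enzymes and CD38 consume it. Chondrocytes live with little oxygen, depend largely on glycolysis, and are known for their collagen II and aggrecan matrix, whose genes are driven by SOX9.

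The GFP libraries held 39959888 and 19860937 counts and the Cre libraries 36262201 and 25094036, the first of each pair from library set 1 and the second from set 2. Levels below are CPM, the counts scaled to a common library total, in that order of sets, and adjusted p is edgeR's quasi-likelihood test, two-sided, with Benjamini-Hochberg adjustment over 16136 genes, called at 0.05 or less. Intervals between replicates cover only these pairs of libraries. SE is the size of the log2 fold change over the square root of the test's F value. It was derived from the test and not estimated separately, and is rough where a group has few or no counts. Defining chondrocyte genes were abundant in all 4 libraries. For the whole list of 10 chondrocyte markers the summed level ran from 73950 to 75310 CPM in the GFP libraries and from 51360 to 51560 CPM in the Cre libraries. Gene lists and genes were chosen with earlier results of these data known, and a gene outside the naming rule is marked as chosen after its values were seen.

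Nampt fell in both sets. Its level was 61.1 and 56.2 CPM with the GFP virus and 6.86 and 7.03 CPM with Cre (log2 fold change -3.09, SE 0.09, edgeR adjusted p = 2.88e-24), which is 8.49-fold lower. The ranges lie far apart, with less than 1 CPM between the libraries that received Cre. Untreated wild-type cells held 54.4 and 69.4 CPM, close to the GFP libraries. Nampt (ENSMUSG00000020572) lies at chr12:32820335-32853369 on the plus strand of GRCm38 and has 11 annotated exons, and the counts are summed over all of them, so they do not say which exons were lost. In LDHA flox and NFKBIZ flox cells Cre left Nampt at log2 fold changes of -0.06 and 0.18, neither called. The difference from each was -3.01 (edgeR adjusted p = 5.88e-10) and -3.26 (edgeR adjusted p = 1.19e-10).

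Around this loss the transcriptome moved widely but mostly by little. Of 16136 genes tested, 4311 were called (26.7%), 2132 higher (13.2%) and 2179 lower (13.5%) after Cre. These shares are the background for the counts of every gene list below that come from this fit. At an unadjusted p of 0.05 or less there were 5780 (35.8%). Fits without the library set, without 1 of the 4 libraries or of all 24 floxed libraries called fewer genes, so list counts from them have a lower background. Without the library set 1340 genes were higher and 979 lower, and with all 24 libraries 8.57% and 6.28%. The number called was 2871 without GFP replicate 1 and 2819 without Cre replicate 1, and 2319 without the library set in the fit. The median size of a called change was 0.38 on the log2 scale, and 2760 of the called genes (64.0%) moved by less than 0.5. Large changes were mainly increases, since 498 genes (3.09%) rose and 149 (0.923%) fell by more than 2-fold. Both sets gave the same sign in 4300 of the called genes, and in 4089 the Cre and GFP libraries did not overlap. Among all 16136 genes tested, the libraries did not overlap in 8446. Called genes were picked by small p, so a lack of overlap, here or for single genes below, is no further support. Genes annotated with ribosomal RNA biotypes were left out, and the median log2 fold change of all genes tested was -0.02. Gm26917, which has no such biotype and stayed in, was the most abundant gene, with 6.698% to 8.146% of counts in the 4 libraries.

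Of 17 NAD salvage and synthesis genes tested, out of 27 listed, 2 rose and 4 fell, Nampt included, with a median of 0.09, beside 13.2% higher and 13.5% lower among all genes, and 1 rose without either GFP library or Cre replicate 1. Nmnat3, which codes for the mitochondrial NMNAT, showed the next largest decrease, with 16.1 and 18.4 CPM with the GFP virus and 3.375 and 3.48 CPM with Cre (log2 fold change -2.32, SE 0.15, edgeR adjusted p = 1.04e-14). The GFP libraries stood above all others here, since untreated wild-type cells held 2.975 and 6.19 CPM. Cre lowered Nmnat3 in the other floxed lines too, at -1.79 in LDHA flox and -1.67 in NFKBIZ flox. Of the 17 genes 2 were called higher and 3 lower in LDHA flox (median 0.06), and 0 and 1 in NFKBIZ flox (median -0.09). The difference of the Cre effect from LDHA flox was called for 1 of them, Nampt, and that from NFKBIZ flox for 3.

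Nt5e, the ectonucleotidase CD73 that splits extracellular nucleotides, was at 122 and 123 CPM with the GFP virus and 83.7 and 83.9 CPM with Cre (log2 fold change -0.55, SE 0.05, edgeR adjusted p = 1.99e-10). Nmnat2, the cytosolic NMNAT best known from neurons, rose from 0.938 and 0.379 CPM to 2.33 and 2.6 CPM (log2 fold change 1.72, SE 0.31, edgeR adjusted p = 4.72e-05). The range of the Nmnat2 libraries was wide at this low level, and the groups did not overlap. The following genes were chosen after their values were seen. Slc25a51, the mitochondrial NAD carrier, had a log2 fold change of -0.28 (edgeR adjusted p = 0.00085), which was not called without GFP replicate 2 (edgeR adjusted p = 0.0676). Aox1, an aldehyde oxidase that breaks down nicotinamide metabolites, passed only narrowly at 0.50 (edgeR adjusted p = 0.0459), and its call was lost when either GFP library or Cre replicate 1 was left out (edgeR adjusted p = 0.11 to 0.677). Nmnat1, the nuclear NMNAT, was at 6.28 and 6.72 CPM with the GFP virus and 7.26 and 7.03 CPM with Cre and was not called (edgeR adjusted p = 0.573). Nadk, the NAD kinase, was at 112 and 108 CPM with the GFP virus and 112 and 113 CPM with Cre and was not called either (edgeR adjusted p = 0.704). For both genes the difference between groups was no larger than the fitted spread allows. The entry genes of other routes to NAD, Nmrk1 (log2 fold change -0.24) for nicotinamide riboside and Naprt (0.21) for nicotinic acid, were not called. Nnt, the mitochondrial transhydrogenase, was at 13.2 and 11.2 CPM with the GFP virus and 12.0 and 11.2 CPM with Cre against 43.2 and 43.9 CPM in untreated wild-type cells.

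Of 27 genes of NAD-consuming enzymes tested, 5 rose and 1 fell, with a median of 0.03, a share called close to the 26.7% of all genes. The number that rose was 3 without GFP replicate 1 or Cre replicate 2. Both CD38-family genes were near the detection limit in the GFP libraries. Bst1 went from 0.287 and 0 CPM to 3.375 and 3.72 CPM (log2 fold change 4.17, SE 0.39, edgeR adjusted p = 1.19e-10), and Cd38 from 0.391 and 0.108 CPM to 1.77 and 0.959 CPM (log2 fold change 2.32, SE 0.42, edgeR adjusted p = 4.84e-05). These are small amounts, and with Cre both remained under 4 CPM. Parp10, a mono-ADP-ribosyltransferase, was at 5.11 and 4.93 CPM with the GFP virus and 7.12 and 8.91 CPM with Cre (log2 fold change 0.66, SE 0.17, edgeR adjusted p = 0.00349), a call that was lost without Cre replicate 2 (edgeR adjusted p = 0.152). Parp8 was lower at -0.39 (edgeR adjusted p = 0.00279), a call lost without GFP replicate 2 (edgeR adjusted p = 0.0627). Sirt1, the nuclear NAD-dependent deacetylase, and Parp1, the main PARP of DNA repair, were chosen after their values were seen. Sirt1 was at 24.2 and 22.6 CPM with the GFP virus and 25.4 and 23.5 CPM with Cre (edgeR adjusted p = 0.659) and Parp1 at 83.2 and 80.8 CPM with the GFP virus and 84.55 and 82.6 CPM with Cre (edgeR adjusted p = 0.784).

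The cartilage programme was lower after Cre. All 10 chondrocyte markers fell, with a median log2 fold change of -0.63. In the wider cartilage matrix list 23 of 30 genes fell and 1 rose (median -0.55), and in the list of SOX factors and hypertrophy genes 16 of 23 tested fell (median -0.53), and none rose by edgeR, by DESeq2 or at an unadjusted p of 0.05 or less in edgeR. The share called lower among all genes tested was 13.5%. The most abundant of these cartilage genes changed by less than 2-fold. In these bulk samples, fewer cells of a type and less RNA per cell cannot be told apart.

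Col2a1, the collagen II gene and the most abundant of the list, was at 53280 and 55330 CPM with the GFP virus and 38410 and 38490 CPM with Cre (log2 fold change -0.50, SE 0.02, edgeR adjusted p = 1.68e-21). Acan, which codes for aggrecan, was at 6288 and 6136 CPM with the GFP virus and 4034 and 4080 CPM with Cre (log2 fold change -0.61, SE 0.03, edgeR adjusted p = 2.04e-19). Hapln1, whose link protein ties aggrecan to hyaluronan, showed the steepest decrease of the chondrocyte markers, from 745 and 732 CPM to 365 and 368 CPM (log2 fold change -1.01, SE 0.04, edgeR adjusted p = 6.92e-21). In each of these genes the libraries of a group lay within a few percent of each other, and the groups stood well apart. Col11a1, a minor collagen of the collagen II fibril, was at 8177 and 7739 CPM with the GFP virus and 5184 and 4876 CPM with Cre (log2 fold change -0.66, SE 0.02, edgeR adjusted p = 1.88e-21). Of the matrix genes chosen after their values were seen, Cnmd (chondromodulin, an inhibitor of vessel growth) had a log2 fold change of -0.79, Col9a1 -0.65 and Comp -0.57.

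Sox9 itself, also chosen after its values were seen, had a smaller log2 fold change than these matrix genes, with 609.9 and 646 CPM with the GFP virus and 488.5 and 537 CPM with Cre (log2 fold change -0.29, SE 0.04, edgeR adjusted p = 6.66e-08). Its partners Sox5 and Sox6, chosen in the same way, had log2 fold changes of -0.67 and -0.56. Fgfr3, the receptor that restrains chondrocyte proliferation, was at 539 and 562 CPM with the GFP virus and 307 and 315 CPM with Cre (log2 fold change -0.82, SE 0.04, edgeR adjusted p = 2.88e-18). Genes of hypertrophy, the last stage before cartilage is replaced by bone, were lower as well. Col10a1, the collagen of hypertrophic cartilage, was at 672 and 568.5 CPM with the GFP virus and 377 and 326 CPM with Cre (log2 fold change -0.82, SE 0.04, edgeR adjusted p = 4.53e-18). Mmp13, the main collagenase of cartilage, was at 46.5 and 44.5 CPM with the GFP virus and 18.5 and 16.75 CPM with Cre (log2 fold change -1.36, SE 0.07, edgeR adjusted p = 4.35e-18). The groups did not overlap in either gene. Spp1 (osteopontin) was at 453 and 429 CPM with the GFP virus and 293 and 287 CPM with Cre (log2 fold change -0.61, SE 0.04, edgeR adjusted p = 5.82e-16). Ibsp, the bone sialoprotein gene, dropped most within this list, from 17.4 and 18.3 CPM to 5.035 and 5.475 CPM (log2 fold change -1.76, SE 0.16, edgeR adjusted p = 4.31e-11).

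Related connective tissue genes went the same way. Of 10 fibroblast or perichondrial markers 8 fell and 1 rose, with a median of -0.34. Postn (periostin) was at 345 and 300.5 CPM with the GFP virus and 204 and 188 CPM with Cre (log2 fold change -0.72, SE 0.04, edgeR adjusted p = 1.03e-15), and Col3a1 at 364 and 386 CPM with the GFP virus and 237.5 and 226 CPM with Cre (log2 fold change -0.69, SE 0.04, edgeR adjusted p = 1.66e-15). Tnmd, a tendon and perichondrial marker, was at 7.89 and 7.75 CPM with the GFP virus and 3.535 and 2.64 CPM with Cre (log2 fold change -1.33, SE 0.20, edgeR adjusted p = 2.67e-06). All 3 separated the groups. Abi3bp, a matrix protein gene, fell further, from 36.1 and 35.3 CPM to 10.2 and 8.59 CPM (log2 fold change -1.91, SE 0.10, edgeR adjusted p = 4.65e-17). Smpd3, a sphingomyelinase gene needed for skeletal mineralisation, was at 63.8 and 68.3 CPM with the GFP virus and 30.2 and 27.3 CPM with Cre (log2 fold change -1.19, SE 0.08, edgeR adjusted p = 7.17e-14). Mest, an imprinted gene of mesoderm, was at 781 and 785 CPM with the GFP virus and 301 and 308 CPM with Cre (log2 fold change -1.36, SE 0.04, edgeR adjusted p = 3.77e-25), while untreated wild-type cells held 947 and 667 CPM.

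**Figure D1:**
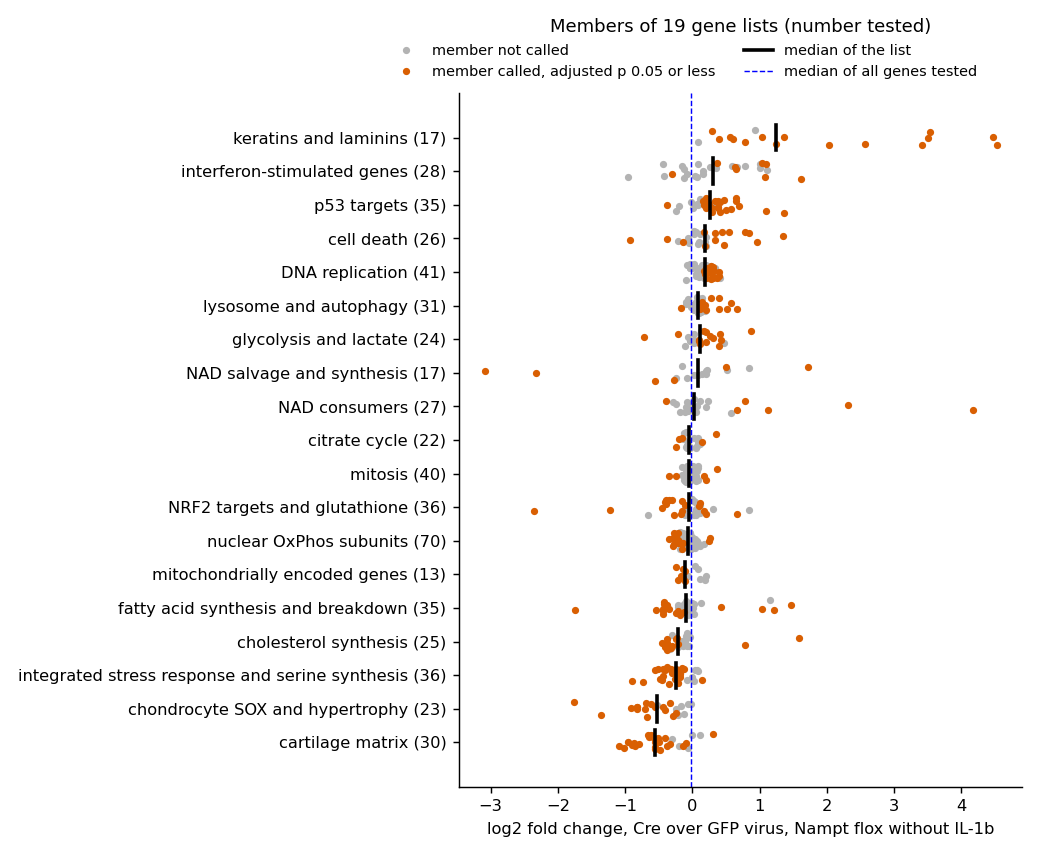
Log2 fold change after Cre (x axis) of each tested member of 19 gene lists (y axis, number tested in brackets); orange points are called, grey points are not, black bars are list medians and the dashed line is the median of all genes tested (-0.02). Cartilage matrix (median -0.55) lies furthest to the left and keratins and laminins (1.25) furthest to the right.

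Epithelial keratins and basement membrane genes rose. Of 17 keratin, laminin and related genes tested, 15 rose, with a median log2 fold change of 1.25, against 13.2% higher among all genes. None fell by edgeR or DESeq2, nor at an unadjusted p of 0.05 or less in edgeR. Keratins of simple epithelia started from very low levels. Krt7 was at 1.38 and 2.28 CPM with the GFP virus and 38.8 and 39.0 CPM with Cre (log2 fold change 4.53, SE 0.14, edgeR adjusted p = 7.72e-24), Krt8 at 0.417 and 0.542 CPM with the GFP virus and 9.99 and 10.7 CPM with Cre (log2 fold change 4.47, SE 0.21, edgeR adjusted p = 1.17e-18), and its filament partner Krt18 at 2.11 and 2.6 CPM with the GFP virus and 25.6 and 22.4 CPM with Cre (log2 fold change 3.41, SE 0.13, edgeR adjusted p = 1.88e-21). The groups were far apart in all 3. Krt5, a keratin of basal epithelial cells, was at 0.469 and 0.542 CPM with the GFP virus and 6.56 and 4.56 CPM with Cre (log2 fold change 3.50, SE 0.31, edgeR adjusted p = 4.19e-11). Krt19, chosen after its values were seen, was at 1.41 and 2.06 CPM with the GFP virus and 17.1 and 22.2 CPM with Cre (log2 fold change 3.54, SE 0.14, edgeR adjusted p = 1.78e-20).

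Of the basement membrane genes, Lama5, a laminin chain, was already expressed and rose from 63.0 and 60.95 CPM to 146 and 149 CPM (log2 fold change 1.25, SE 0.05, edgeR adjusted p = 9.43e-21). Itgb4, the laminin receptor subunit of hemidesmosomes, was at 12.5 and 13.8 CPM with the GFP virus and 53.03 and 54.7 CPM with Cre (log2 fold change 2.04, SE 0.08, edgeR adjusted p = 1.77e-21). Itga3, another laminin receptor subunit, was at 62.9 and 68.6 CPM with the GFP virus and 213 and 222.5 CPM with Cre (log2 fold change 1.73, SE 0.04, edgeR adjusted p = 9.75e-27). These receptor genes were measurable in both groups and did not overlap between them. Col7a1, the anchoring fibril collagen, rose 9.97-fold from 2.97 and 3.79 CPM to 32.1 and 33.5 CPM (log2 fold change 3.32, SE 0.12, edgeR adjusted p = 8.33e-22). Col18a1, a basement membrane collagen, was at 28.0 and 25.4 CPM with the GFP virus and 102.5 and 96.2 CPM with Cre (log2 fold change 1.89, SE 0.06, edgeR adjusted p = 8.31e-24). Tinagl1, a secreted matrix protein gene, was at 61.9 and 67.2 CPM with the GFP virus and 244.5 and 261 CPM with Cre (log2 fold change 1.97, SE 0.05, edgeR adjusted p = 1.62e-27). No library with Cre overlapped a library with the GFP virus in any of these 6 genes.

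Of 5 epithelial markers tested 4 rose (median 3.41). Of 6 listed, Krt14 was under the filter of 1 CPM and Epcam, chosen after its values were seen, was at 0.599 and 0.65 CPM with the GFP virus and 0.964 and 1.12 CPM with Cre (edgeR adjusted p = 0.149). Cdh1 (E-cadherin) was at 0.2345 and 0.325 CPM with the GFP virus and 1.9 and 1.36 CPM with Cre (log2 fold change 2.64, SE 0.40, edgeR adjusted p = 3.2e-06). The summed level of the list was 3.83 to 4.66 CPM in the GFP libraries, 40.1 to 45.0 CPM in the Cre libraries and 1.03 to 3.79 CPM in untreated wild-type cells. The part of other cells in the keratin result was not tested.

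Other genes with large or precise increases were of several kinds. Wnt7a, a WNT ligand, was at 0.104 and 0 CPM with the GFP virus and 11.4 and 12.2 CPM with Cre, so that its fitted log2 fold change of 7.29 rests on 4 and 0 counts in the GFP libraries. Hoxd9, a homeobox gene, was at 0.313 and 0.4335 CPM with the GFP virus and 12.05 and 17.8 CPM with Cre (log2 fold change 5.28, SE 0.18, edgeR adjusted p = 3.06e-22). Krt90 was at 0.104 and 0.325 CPM with the GFP virus and 7.5 and 5.435 CPM with Cre (log2 fold change 5.18, SE 0.33, edgeR adjusted p = 7.29e-15). These 3 genes were near 0 in the GFP libraries. Ccnd1, the cyclin that starts the cell cycle in G1, was at 167 and 176 CPM with the GFP virus and 468 and 483 CPM with Cre (log2 fold change 1.47, SE 0.04, edgeR adjusted p = 1.09e-25). Sncg (gamma-synuclein) was at 13.9 and 14.4 CPM with the GFP virus and 67.65 and 67.8 CPM with Cre (log2 fold change 2.26, SE 0.07, edgeR adjusted p = 3.1e-23). Ngfr, the low-affinity neurotrophin receptor, was at 4.12 and 6.18 CPM with the GFP virus and 28.0 and 29.7 CPM with Cre (log2 fold change 2.55, SE 0.10, edgeR adjusted p = 1.37e-20). The groups did not overlap in these genes. Kdr, the VEGF receptor used here as an endothelial marker, was at 1.38 and 1.52 CPM with the GFP virus and 10.6 and 10.8 CPM with Cre (log2 fold change 2.90, SE 0.18, edgeR adjusted p = 2.71e-15). The other endothelial markers tested were not called, and Emcn and Cldn5 stayed under the filter. All 39 genes that rose more than 4-fold to a mean of at least 5 CPM were nearer to the GFP libraries than to the Cre libraries in untreated wild-type cells.

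**Figure D2:**
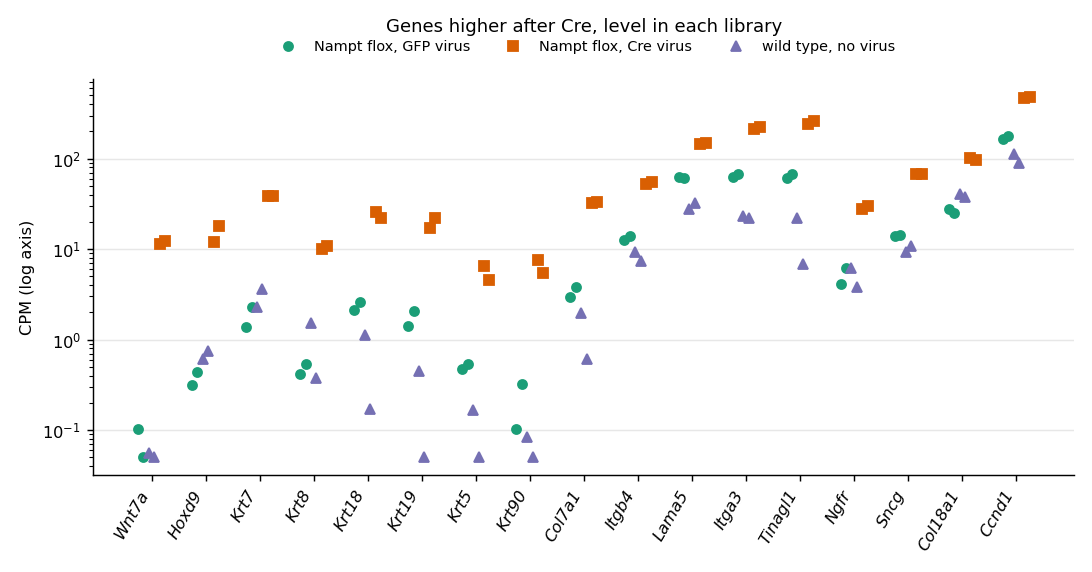
Level (CPM, log axis) of 17 genes that rose after Cre, 1 point per library: circles GFP virus, squares Cre, triangles untreated wild type; values under 0.05 CPM are drawn at 0.05. The Cre squares lie above the other points in each gene, for Ccnd1 at 468 and 483 CPM.

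Only 14 genes with at least 5 CPM fell more than 4-fold, and for 12 of them untreated wild-type cells were nearer to the Cre libraries than to the GFP libraries. Nearness was taken on the scale log2(CPM + 0.5). For these genes the GFP-virus controls, and not the Cre libraries, were furthest from cells without virus, and the part of the virus was not tested. Tmem130, a membrane protein gene, was at 519.7 and 606 CPM with the GFP virus and 26.5 and 25.1 CPM with Cre, against 0.112 and 0.171 CPM in untreated wild-type cells (log2 fold change -4.43, SE 0.05, edgeR adjusted p = 9.02e-37). Htra2, a mitochondrial serine protease gene, was at 991.5 and 1367 CPM with the GFP virus and 129 and 170.2 CPM with Cre, against 39.65 and 18.6 CPM (log2 fold change -2.97, SE 0.03, edgeR adjusted p = 8.1e-38). Fem1a was at 323 and 415 CPM with the GFP virus and 55.7 and 53.4 CPM with Cre, against 57.4 and 48.2 CPM (log2 fold change -2.73, SE 0.07, edgeR adjusted p = 9.75e-27). With Cre, Tmem130 and Htra2 still lay above the wild-type libraries, and Fem1a lay within their range. Htra2 overlaps Loxl3 and Aup1 on the other strand, and whether counting used the strand is not given in the sources used here, so reads of these genes cannot be told apart.

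Zan, Bcas1, Lipg and Insm2 showed the same arrangement at lower levels. Zan was at 65.5 and 87.6 CPM with the GFP virus and 10.9 and 10.2 CPM with Cre, against 0.253 and 0.308 CPM in wild-type cells, and Bcas1 at 39.4 and 36.8 CPM with the GFP virus and 3.13 and 4.44 CPM with Cre, against 0 and 0.4445 CPM. Lipg (endothelial lipase) was at 43.2 and 38.1 CPM with the GFP virus and 5.035 and 3.48 CPM with Cre, against 3.115 and 1.03 CPM. Their log2 fold changes were -2.82, -3.38 and -3.23, that of Insm2 was -3.53, and those of Nat8f5 and Rab3d, chosen after their values were seen, were -3.22 and -2.58. Zan and Bcas1 also overlap annotated genes on the other strand. Trrap, an adaptor of histone acetyltransferase complexes, was at 701 and 781 CPM with the GFP virus and 306 and 304 CPM with Cre, against 229.7 and 235.5 CPM (log2 fold change -1.28, SE 0.04, edgeR adjusted p = 2.75e-24). The exceptions were Nampt and Atp8b5, a phospholipid flippase gene. Atp8b5 was at 0.391 and 35.8 CPM with the GFP virus and 0.643 and 0.32 CPM with Cre (log2 fold change -4.05, SE 0.72, edgeR adjusted p = 3.5e-05), so its decrease rests on GFP replicate 2 alone, and its call was lost without Cre replicate 2 (edgeR adjusted p = 0.486).

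**Figure D3:**
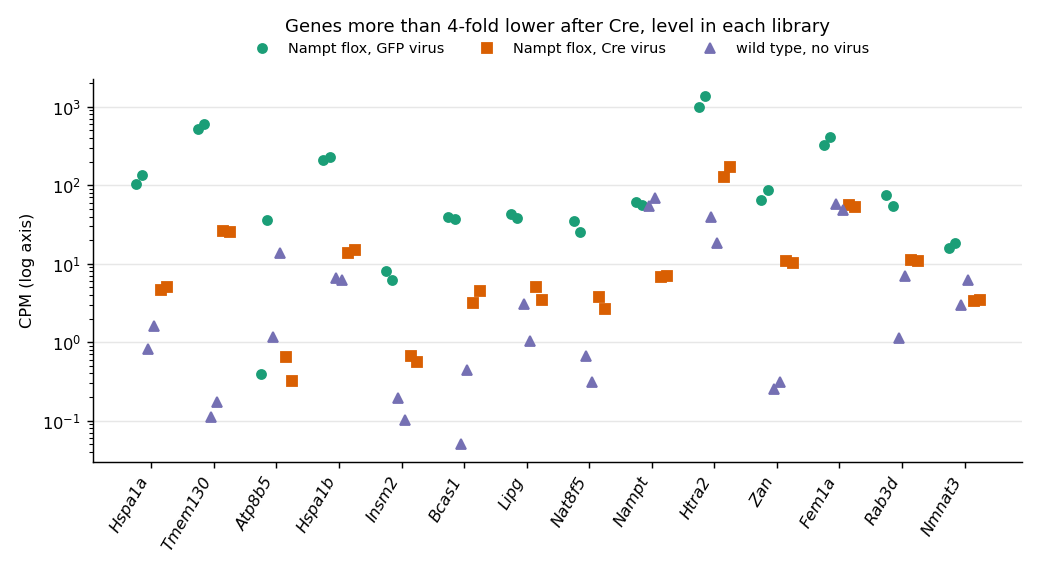
Level (CPM, log axis) of the 14 genes that fell more than 4-fold after Cre, 1 point per library: circles GFP virus, squares Cre, triangles untreated wild type; values under 0.05 CPM are drawn at 0.05. For Nampt the triangles (54.4 and 69.4 CPM) lie with the circles, and for Tmem130 (0.112 and 0.171 CPM) they lie under the squares.

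The inducible heat shock genes belonged to this group, and Hspa1a had the steepest decrease among these 14 genes. Hspa1a and Hspa1b code for the stress-inducible HSP70, are neighbours on chromosome 17, and are near-identical copies, so reads may be split between them or lost as ambiguous. Hspa1a also overlaps the annotated gene Gm20481 on the other strand. Hspa1a was at 104 and 135 CPM with the GFP virus and 4.58 and 5.115 CPM with Cre, against 0.814 and 1.61 CPM in untreated wild-type cells (log2 fold change -4.60, SE 0.07, edgeR adjusted p = 4.29e-34). Hspa1b was at 213 and 231 CPM with the GFP virus and 13.6 and 14.8 CPM with Cre, against 6.595 and 6.15 CPM (log2 fold change -3.96, SE 0.05, edgeR adjusted p = 3.81e-36). In the list of 17 heat shock genes 10 fell and 3 rose, with a median of -0.11, so the list as a whole moved far less than this pair. Hspa8, the constitutive cytosolic HSP70, was at 1907 and 1784 CPM with the GFP virus and 1461 and 1423 CPM with Cre (log2 fold change -0.36, SE 0.03, edgeR adjusted p = 8.68e-12), and Hspe1, the mitochondrial co-chaperonin, at 130.2 and 129.5 CPM with the GFP virus and 96.55 and 95.1 CPM with Cre (log2 fold change -0.44, SE 0.05, edgeR adjusted p = 7.1e-09).

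The 150 bases before the RefSeq start of both genes are shown because they carry a motif of the heat shock factor, GAANNTTC, which reads the same on both strands. Capitals mark it, with its first base 104 bases before the start (GRCm38.p6, Hspa1a at chr17:34972157-34972306, minus strand; Hspa1b at chr17:34959239-34959388, minus strand).
Hspa1a: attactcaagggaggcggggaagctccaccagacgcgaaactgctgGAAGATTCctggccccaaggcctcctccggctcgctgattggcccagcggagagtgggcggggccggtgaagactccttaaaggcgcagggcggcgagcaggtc
Hspa1b: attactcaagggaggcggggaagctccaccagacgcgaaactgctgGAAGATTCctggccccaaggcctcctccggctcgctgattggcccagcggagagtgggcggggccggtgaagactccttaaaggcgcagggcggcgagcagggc
These windows are identical at 149 of 150 bases. In the 300 bases around each RefSeq start, which reach 250 bases before it and 50 after, the motif occurs in 7.86% of 32851 promoters, or in at least 1 promoter of 9.04% of 27025 genes. Of the heat shock genes tested, 13 had a promoter sequence and 10 of these held the motif, of which 6 were lower after Cre. In the whole list 10 of 17 (58.8%) were lower, a similar share. A match is a description of letters and not of a bound site.

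Genes of the integrated stress response and of serine and one-carbon synthesis fell together in small steps. ATF4 is the transcription factor of this response, which cells use when amino acids run short or proteins misfold. Of 36 genes 28 fell and 1 rose, beside 13.5% lower among all genes, with a median of -0.24. The count of lower genes was 17 in a fit of all 24 floxed libraries, where 6.28% of all genes were lower. Atf4 was at 755 and 751 CPM with the GFP virus and 531 and 576 CPM with Cre (log2 fold change -0.45, SE 0.04, edgeR adjusted p = 6.67e-12). Ppp1r15a, which ends the response, was at 229 and 226.5 CPM with the GFP virus and 158 and 153 CPM with Cre (log2 fold change -0.55, SE 0.04, edgeR adjusted p = 2.24e-12). Cth, the last enzyme of cysteine synthesis, was at 49.97 and 42.6 CPM with the GFP virus and 28.2 and 27.5 CPM with Cre (log2 fold change -0.74, SE 0.08, edgeR adjusted p = 3.25e-09), and Nupr1, a stress-induced chromatin protein gene, at 146.5 and 144 CPM with the GFP virus and 105 and 98.5 CPM with Cre (log2 fold change -0.51, SE 0.06, edgeR adjusted p = 7.24e-09). All 4 genes separated the groups without overlap. Trib3 (-0.43), Ddit3 (-0.44), Fgf21 (-0.90) and Asns (-0.26), chosen after their values were seen, are known ATF4 targets and were called lower, Asns not in the fit of 24 libraries.

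The element to which ATF4 dimers bind, written here as TGATGNAA and searched on both strands, was present in 3.97% of the 32851 promoters (4.51% of the 27025 genes). It was in 10 of 31 list genes with a promoter sequence, 8 of them lower, beside 28 of 36 (77.8%) lower in the whole list. Windows of 60 bases around it are given for 4 lower genes, whose products make asparagine (Asns), import cystine (Slc7a11), make proline (Pycr1) and charge tRNA with glycine (Gars), with the element in capitals, on the other strand in Gars and in the second copy of Slc7a11.
Asns: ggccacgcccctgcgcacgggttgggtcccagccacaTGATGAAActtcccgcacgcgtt
Slc7a11: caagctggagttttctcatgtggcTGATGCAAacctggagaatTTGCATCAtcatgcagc
Pycr1: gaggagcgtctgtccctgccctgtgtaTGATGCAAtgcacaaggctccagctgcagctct
Gars: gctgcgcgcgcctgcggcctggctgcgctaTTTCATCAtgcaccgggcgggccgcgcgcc
The windows lie at chr6:7693210-7693269, minus strand for Asns, chr3:50443644-50443703, minus strand for Slc7a11, chr11:120643819-120643878, minus strand for Pycr1 and chr6:55037941-55038000, plus strand for Gars (GRCm38.p6, RefSeq starts). Slc7a11 was at 49.7 and 42.7 CPM with the GFP virus and 36.0 and 34.5 CPM with Cre (log2 fold change -0.40, SE 0.07, edgeR adjusted p = 1.54e-05), and Pycr1 and Gars, chosen after their values were seen, had log2 fold changes of -0.48 and -0.23. The call of Gars was lost in the fit of 24 libraries.

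Targets of p53 rose in small steps. Of 35 genes 24 rose and 1 fell, beside 13.2% higher among all genes, with a median of 0.27. Cdkn1a, which codes for the cell cycle inhibitor p21, was at 562 and 584 CPM with the GFP virus and 769 and 754 CPM with Cre (log2 fold change 0.41, SE 0.03, edgeR adjusted p = 9.32e-12). Perp, a desmosome gene, was at 21.5 and 25.8 CPM with the GFP virus and 48.0 and 52.5 CPM with Cre (log2 fold change 1.10, SE 0.07, edgeR adjusted p = 4.74e-14), Ccng1 (cyclin G1) at 444 and 387 CPM with the GFP virus and 605 and 548 CPM with Cre (log2 fold change 0.47, SE 0.04, edgeR adjusted p = 1.96e-12), and Sulf2, a heparan sulfate sulfatase gene, at 412 and 409 CPM with the GFP virus and 629 and 661 CPM with Cre (log2 fold change 0.65, SE 0.04, edgeR adjusted p = 1.96e-16). Cre libraries were above GFP libraries in all 4. Mdm2 (0.29), the inhibitor of p53, and Pmaip1 (1.36), the death-promoting NOXA gene, were chosen after their values were seen.

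DNA replication genes rose as well, in 16 of 41 with a median of 0.19 and none lower by edgeR (0 also by DESeq2 and at an unadjusted p of 0.05 or less). The count was 9 without the library set in the fit, beside 1340 of 16136 among all genes. It was also 9 in the fit of 24 libraries, beside 8.57% of all genes. Rrm2, a ribonucleotide reductase subunit, was at 155 and 172 CPM with the GFP virus and 201 and 222.5 CPM with Cre (log2 fold change 0.37, SE 0.04, edgeR adjusted p = 6.28e-09), and Mcm5, of the replicative helicase, at 109 and 119 CPM with the GFP virus and 141 and 158 CPM with Cre (log2 fold change 0.39, SE 0.05, edgeR adjusted p = 1.57e-08). Of 40 mitotic genes 3 rose and 2 fell (median -0.05), shares under the 13.2% higher and 13.5% lower among all genes. Of 26 cell death genes tested 11 rose and 3 fell (median 0.19), and 7 rose without Cre replicate 2. They included Ripk3, the kinase of necroptosis, at 27.7 and 26.7 CPM with the GFP virus and 50.3 and 47.7 CPM with Cre (log2 fold change 0.85, SE 0.07, edgeR adjusted p = 1.09e-12), Bcl2l11 (BIM) at 11.2 and 9.54 CPM with the GFP virus and 21.3 and 19.9 CPM with Cre (log2 fold change 0.96, SE 0.10, edgeR adjusted p = 3.56e-09), and the pyroptosis gene Gsdmd at 2.605 and 3.47 CPM with the GFP virus and 7.47 and 7.39 CPM with Cre (log2 fold change 1.35, SE 0.17, edgeR adjusted p = 8.04e-08). The list holds both promoters and inhibitors of death, and Bcl2l1 (BCL-XL), an inhibitor, was at 87.3 and 94.2 CPM with the GFP virus and 118 and 111 CPM with Cre (log2 fold change 0.34, SE 0.05, edgeR adjusted p = 3.08e-06).

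Of 24 glycolysis and lactate genes 12 rose and 2 fell (median 0.11), beside 13.2% higher and 13.5% lower among all genes. In the fit of 24 libraries 7 rose and 1 fell, beside 8.57% and 6.28%. Pkm, pyruvate kinase, was at 1647 and 1830 CPM with the GFP virus and 2040 and 2272 CPM with Cre (log2 fold change 0.31, SE 0.03, edgeR adjusted p = 3.6e-11), and Slc16a3, the lactate exporter, at 88.7 and 89.8 CPM with the GFP virus and 118 and 123 CPM with Cre (log2 fold change 0.43, SE 0.05, edgeR adjusted p = 3.02e-09). Pfkfb4, which makes the activator of phosphofructokinase, was at 6.2 and 5.31 CPM with the GFP virus and 10.8 and 10.7 CPM with Cre (log2 fold change 0.87, SE 0.13, edgeR adjusted p = 1.23e-06). Ldha, lactate dehydrogenase A, was at 991 and 943 CPM with the GFP virus and 1064 and 1013 CPM with Cre, a log2 fold change of 0.10 whose call was lost without GFP replicate 1 or either Cre library (edgeR adjusted p = 0.0874 to 0.141).

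Respiratory chain genes tended to be called lower, but the calls were not stable. Of 70 nuclear subunits 14 fell and 2 rose (median -0.07). Without the library set in the fit 3 fell, beside 979 of 16136 among all genes. In the fit of 24 libraries 1 fell, beside 6.28% of all genes. Of 13 mitochondrially encoded genes 7 fell (median -0.11) and 6 by DESeq2. By edgeR 0 fell without the library set in the fit (2 at an unadjusted p of 0.05 or less), 0 in the fit of 24 libraries (0 unadjusted) and 3 without Cre replicate 2. The largest of these log2 fold changes, of mt-Nd6, was -0.24. Of 22 citrate cycle genes 2 rose and 3 fell, and 1 fell without any 1 of the 4 libraries. The citrate cycle shares, 9.09% higher and 13.6% lower, stood under or near the 13.2% and 13.5% of all genes. Idh2, the NADP-dependent mitochondrial isocitrate dehydrogenase, was at 80.3 and 79.7 CPM with the GFP virus and 100.5 and 104 CPM with Cre (log2 fold change 0.35, SE 0.05, edgeR adjusted p = 2.2e-06).

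Of 25 genes of cholesterol synthesis and its control 10 fell and 2 rose (median -0.21), beside 13.5% lower and 13.2% higher among all genes. Fdps, an enzyme of the mevalonate pathway, was at 64.2 and 56.95 CPM with the GFP virus and 46.6 and 42.0 CPM with Cre (log2 fold change -0.45, SE 0.07, edgeR adjusted p = 2.15e-06), and the sterol demethylase gene Cyp51 at 102 and 100.4 CPM with the GFP virus and 78.85 and 74.4 CPM with Cre (log2 fold change -0.40, SE 0.06, edgeR adjusted p = 6.33e-07). The 2 that rose were the cholesterol exporters Abca1, at 26.4 and 22.3 CPM with the GFP virus and 42.7 and 41.8 CPM with Cre (log2 fold change 0.78, SE 0.08, edgeR adjusted p = 9.94e-10), and Abcg1, at 2.16 and 2.93 CPM with the GFP virus and 6.37 and 8.67 CPM with Cre (log2 fold change 1.59, SE 0.18, edgeR adjusted p = 1.22e-08). Of 35 fatty acid genes 13 fell and 4 rose (median -0.10), with Acaca, which catalyses the first step of fatty acid synthesis, at 176 and 161 CPM with the GFP virus and 118 and 113 CPM with Cre (log2 fold change -0.54, SE 0.05, edgeR adjusted p = 1.43e-10), and the desaturase gene Scd1 at 607 and 540.1 CPM with the GFP virus and 431 and 415 CPM with Cre (log2 fold change -0.44, SE 0.04, edgeR adjusted p = 1.17e-10). In untreated wild-type cells Scd1 was at 268 and 1192 CPM, further apart than the groups with and without Cre.

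In a list of NRF2 targets and other antioxidant and glutathione genes 13 of 36 were called lower and 5 higher (median -0.05). In the fit of 24 libraries 7 were lower and 2 higher, beside 6.28% and 8.57% of all genes. Hmox1, heme oxygenase 1, was at 515 and 505 CPM with the GFP virus and 372 and 373 CPM with Cre (log2 fold change -0.45, SE 0.04, edgeR adjusted p = 1.7e-12), and the mitochondrial superoxide dismutase gene Sod2 at 62.4 and 63.2 CPM with the GFP virus and 49.1 and 50.2 CPM with Cre (log2 fold change -0.34, SE 0.05, edgeR adjusted p = 2.39e-06). Among 22 genes of endoplasmic reticulum chaperones 8 fell and 2 rose (median -0.05). In the fit of 24 libraries 4 fell and 2 rose, beside 6.28% and 8.57% of all genes. Hspa5 (BiP) was at 1132 and 1085 CPM with the GFP virus and 962 and 924 CPM with Cre (log2 fold change -0.23, SE 0.03, edgeR adjusted p = 6.81e-07). Lysosome and autophagy genes rose in 11 of 31 and fell in 1 (median 0.08), with Gpnmb at 223.5 and 225 CPM with the GFP virus and 348.5 and 366 CPM with Cre (log2 fold change 0.67, SE 0.04, edgeR adjusted p = 9.49e-16) and cathepsin B (Ctsb) at 209 and 224 CPM with the GFP virus and 272 and 296 CPM with Cre (log2 fold change 0.39, SE 0.04, edgeR adjusted p = 3.9e-10). Hypoxia target genes rose in 10 of 22 and fell in 4 (median 0.12), and the number that rose was 5 without GFP replicate 1 and 6 without Cre replicate 1. The 19 circadian clock genes held 4 that rose and 3 that fell (median -0.02), beside 13.2% higher and 13.5% lower among all genes, and 1 that fell without GFP replicate 1. Egln3, an oxygen-sensing hydroxylase, was at 5.37 and 5.04 CPM with the GFP virus and 12.2 and 11.4 CPM with Cre (log2 fold change 1.18, SE 0.12, edgeR adjusted p = 5.73e-10), and the clock gene Per3 at 36.9 and 34.5 CPM with the GFP virus and 21.1 and 20.0 CPM with Cre (log2 fold change -0.80, SE 0.09, edgeR adjusted p = 2.63e-08).

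Secreted factors, proteases and inflammatory genes moved in both directions. Among all genes 13.2% were called higher and 13.5% lower. Of 40 growth factor ligands and antagonists tested 15 rose and 15 fell (median -0.13), and 14 rose and 8 fell without GFP replicate 2. Igf2, the fetal growth factor, was at 15640 and 16240 CPM with the GFP virus and 11870 and 12050 CPM with Cre (log2 fold change -0.41, SE 0.02, edgeR adjusted p = 6.01e-18), Chrdl1, a BMP antagonist, at 99.2 and 90.4 CPM with the GFP virus and 50.25 and 50.7 CPM with Cre (log2 fold change -0.91, SE 0.07, edgeR adjusted p = 5.75e-13), and Bmp7 at 11.8 and 12.35 CPM with the GFP virus and 26.3 and 28.9 CPM with Cre (log2 fold change 1.18, SE 0.09, edgeR adjusted p = 2.31e-12). The first 2 fell and Bmp7 rose, each without overlap. Of 32 matrix proteases and inhibitors tested 13 rose and 9 fell (median 0.18). With the filter on the 4 libraries alone 28 were tested, and 13 rose and 9 fell. Timp3, an inhibitor of aggrecanases, was at 1691 and 1623 CPM with the GFP virus and 2765 and 2627 CPM with Cre (log2 fold change 0.70, SE 0.03, edgeR adjusted p = 7.58e-20), Htra1, a secreted serine protease, at 45.9 and 44.3 CPM with the GFP virus and 108 and 106 CPM with Cre (log2 fold change 1.25, SE 0.05, edgeR adjusted p = 9.6e-20), and Adamts1 at 168 and 164 CPM with the GFP virus and 116.5 and 115 CPM with Cre (log2 fold change -0.51, SE 0.05, edgeR adjusted p = 9.29e-11).

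Without IL-1b the 42 inflammatory genes tested held 10 that rose and 10 that fell (median 0.02), beside 13.2% higher and 13.5% lower among all genes. The filter also used the libraries with IL-1b, and some of these genes passed it only there. With the 4 libraries alone 29 were tested, of which 10 rose and 8 fell, beside 2420 and 2487 of all 14849 genes. Of 24 interferon-stimulated genes tested in that fit, 6 rose and 1 fell. Ptgs2 (cyclooxygenase 2) was at 48.4 and 45.6 CPM with the GFP virus and 24.9 and 21.3 CPM with Cre (log2 fold change -1.02, SE 0.06, edgeR adjusted p = 8.47e-16), while Ptges, the synthase that acts after it to make prostaglandin E, was at 2.87 and 2.44 CPM with the GFP virus and 9.83 and 9.95 CPM with Cre (log2 fold change 1.87, SE 0.12, edgeR adjusted p = 1.16e-14). Il1rl1, the receptor of IL-33, was at 34.3 and 30.7 CPM with the GFP virus and 12.4 and 14.0 CPM with Cre (log2 fold change -1.32, SE 0.08, edgeR adjusted p = 3.67e-15), and Slpi, a leukocyte protease inhibitor, at 3.31 and 4.28 CPM with the GFP virus and 11.0 and 13.55 CPM with Cre (log2 fold change 1.72, SE 0.10, edgeR adjusted p = 5.82e-16). Enzymes of 1 pathway, Ptgs2 and Ptges, thus went opposite ways. Of 29 early response genes 11 rose and 7 fell (median 0.06), and the number that rose was 6 without GFP replicate 1 or Cre replicate 1 and 5 in the fit of 24 libraries. They included Dusp4, a phosphatase that switches off ERK, at 4.64 and 5.04 CPM with the GFP virus and 16.7 and 18.1 CPM with Cre (log2 fold change 1.85, SE 0.12, edgeR adjusted p = 5.85e-15). Interferon-stimulated genes rose in 7 of 28 tested and fell in 1 (median 0.30), or 3 and 0 without GFP replicate 1 or Cre replicate 1, for example Irf1 at 12.3 and 13.4 CPM with the GFP virus and 19.1 and 21.3 CPM with Cre (log2 fold change 0.65, SE 0.10, edgeR adjusted p = 3.94e-06).

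Lists of markers for other cell types gave these counts and summed levels. Ptprc, Adgre1, Fcgr1, C1qa and C1qb, which define leukocytes and macrophages, did not pass 1 CPM in any library fitted. None of the 5 macrophage or leukocyte markers tested was called by edgeR or DESeq2 or had an unadjusted p of 0.05 or less, and the summed level of the list was 13.3 to 17.6 CPM in the 4 libraries against 84.95 to 186.6 CPM in untreated wild-type cells. Of 7 skeletal muscle markers tested 3 fell and 1 rose (summed level 112.8 to 120.3 CPM in the GFP libraries and 88.4 to 90.5 CPM in the Cre libraries), of 6 smooth muscle or pericyte markers 2 fell and 1 rose, and of 5 osteoblast markers 2 fell (summed level 2787 to 3016 CPM in the GFP libraries and 2478 to 2618 CPM in the Cre libraries). Without 1 library the 3 lower muscle markers became 1 (GFP replicate 1 or Cre replicate 1) or 2 (GFP replicate 2 or Cre replicate 2), and without either Cre library no muscle marker rose by edgeR. Of 3 adipocyte markers tested 1 fell, of 6 endothelial markers 1 rose, of 4 Schwann or neural markers 2 rose, and neither of the erythroid markers tested, Hba-a1 and Alas2, was called by edgeR or DESeq2 or had an unadjusted p of 0.05 or less. The part of these cell types in the results above was not tested.

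How much of this was particular to the floxed Nampt allele was asked by comparing the Cre effect with that in LDHA flox and NFKBIZ flox cells, each against its own GFP libraries, in 1 fit of 24 libraries and 16727 genes. In that fit 2485 genes (14.9%) were called in NAMPT flox, with 8.57% of all genes higher and 6.28% lower. In LDHA flox 1377 (8.23%) were called, 5.05% higher and 3.19% lower, and in NFKBIZ flox 239 (1.43%), 1.08% higher and 0.353% lower. Of the genes called higher in NAMPT flox 698 were also called higher in LDHA flox, which is 48.7% of the NAMPT flox calls and 82.7% of the LDHA flox calls. Of those called lower 428 were shared, 40.7% and 80.3%, and 1 gene was called in opposite directions. Across 10688 genes over 5 CPM the log2 fold changes of these lines had a Pearson r of 0.83, a description across genes that share the virus, the library sets and the depth. Over all 16727 genes r was 0.57. The genes called higher in NAMPT flox had a median of 0.61 there and 0.42 in LDHA flox, and those called lower -0.45 and -0.30.

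The test of the difference itself called 11 genes (0.0658%) between NAMPT flox and LDHA flox, 7 of them more positive (0.0418%) and 4 more negative (0.0239%) in NAMPT flox, and 808 (4.83%) had an unadjusted p of 0.05 or less. The deleted genes were among them. Besides Nampt, Ldha and its processed copy Ldha-ps2, which may share reads, they were Ngfr, Cyfip2, Ibsp, Gm13549, Ifi27, Abhd2, Itga3 and Hspa1b. Abhd2 was outside the naming rule. Ngfr rose from 6.17 and 7.03 CPM to 16.6 and 15.5 CPM in LDHA flox, less than in NAMPT flox (difference 1.26 on the log2 scale, edgeR adjusted p = 0.0134). Ibsp was at 14.9 and 13.5 CPM with the GFP virus and 10.2 and 11.2 CPM with Cre in LDHA flox, so its decrease was larger in NAMPT flox (difference -1.34, edgeR adjusted p = 0.0173). For most genes of the comparison a difference between these lines was therefore not detected, and what Cre does in a line without its target and what loss of Nampt does cannot be told apart within NAMPT flox cells. The count of 11 was 5 without either GFP library, 3 without Cre replicate 1 and 4 without Cre replicate 2.

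The difference from NFKBIZ flox was called in 765 genes (4.57%), 402 more positive (2.40%) and 363 more negative (2.17%) in NAMPT flox, and 2609 (15.6%) had an unadjusted p of 0.05 or less. All NFKBIZ flox libraries come from set 2, and with the set 2 libraries alone the count was 70. Without 1 of the 4 NAMPT flox libraries it was 406 (GFP replicate 1), 470 (GFP replicate 2), 421 (Cre replicate 1) and 428 (Cre replicate 2). Fewer genes were shared with this line. Among the NAMPT flox calls 83 higher (5.79%, or 46.1% of the NFKBIZ flox calls) and 32 lower (3.04%, or 54.2%) were called the same way, and 13 the opposite way. Pearson r was 0.36 over the 10688 genes and 0.18 over all 16727. Called in the same direction in all 3 lines were 72 higher and 24 lower genes.

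**Figure D4:**
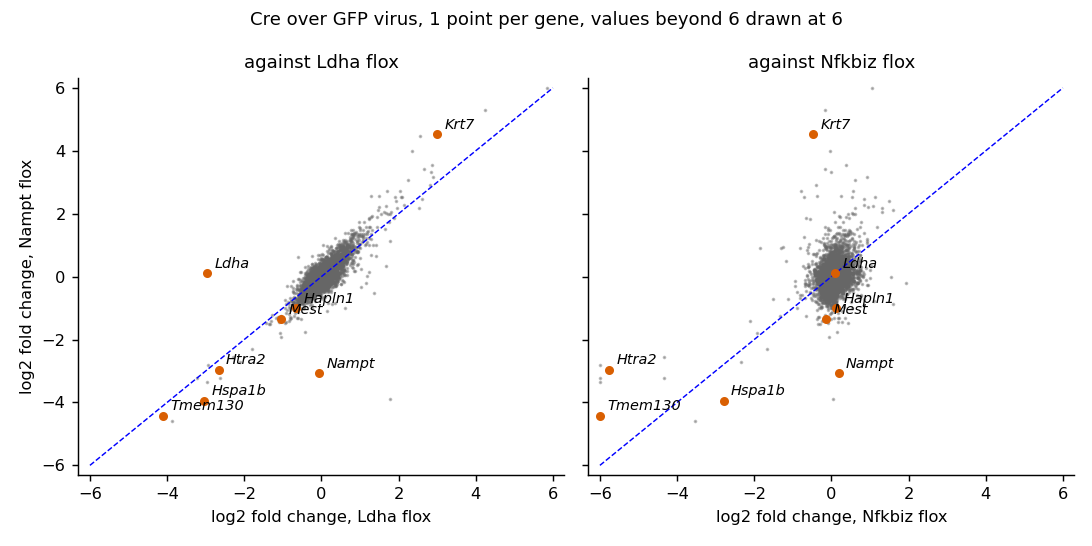
Log2 fold change after Cre in NAMPT flox (y axis) against LDHA flox (left, x axis) and NFKBIZ flox (right, x axis), 1 grey point per gene over 5 CPM, with values beyond 6 drawn at 6 and the dashed line marking equal values. Genes lie near the line on the left (Pearson r 0.83) and less so on the right (0.36); Nampt at -3.07 and Ldha leave it.

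The lists differed between lines in the same way. Cartilage matrix had a median of -0.55 in NAMPT flox, -0.44 in LDHA flox and -0.11 in NFKBIZ flox, with 17 of 30 genes called lower in LDHA flox. By the test of the difference, 11 of the 30 differed from NFKBIZ flox and 0 from LDHA flox by edgeR or DESeq2, where 5 were more negative in NAMPT flox at an unadjusted p of 0.05 or less in edgeR. Keratins and laminins had medians of 1.25, 1.18 and 0.03, and 10 of 17 genes differed from NFKBIZ flox. From LDHA flox 0 differed by edgeR and 1 by DESeq2, and 8 were more positive in NAMPT flox at an unadjusted p of 0.05 or less in edgeR. Krt7, for example, went from 2.81 and 3.02 CPM to 22.7 and 23.9 CPM in LDHA flox, and was at 1.78 and 1.78 CPM with the GFP virus and 0.872 and 1.71 CPM with Cre in NFKBIZ flox. Integrated stress response genes had medians of -0.24, -0.20 and -0.06, and 4 of 36 differed from NFKBIZ flox.

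Some lists stood nearer to each other in all lines or moved more elsewhere. The p53 targets had medians of 0.27 in NAMPT flox, 0.28 in LDHA flox and 0.16 in NFKBIZ flox, and DNA replication 0.19, 0.19 and 0.21. Mitotic genes had medians of -0.05, 0.02 and 0.47, with 22 of 40 called higher in NFKBIZ flox and 17 that differed from NAMPT flox. Interferon-stimulated genes had a median of 0.30 in NAMPT flox and 1.22 in LDHA flox, where 22 of 28 were called higher. The difference between these lines was called for 1 by edgeR and 2 by DESeq2, and 14 of 28 were more negative in NAMPT flox at an unadjusted p of 0.05 or less in edgeR, against 4.83% of all genes in either direction. The heat shock pair fell in every line, Hspa1a by log2 fold changes of -3.86 in LDHA flox and -3.52 in NFKBIZ flox, and Hspa1b by -3.04 and -2.80. Tmem130 fell from 405 and 499 CPM to 0.184 and 0.0923 CPM in NFKBIZ flox, which reached the wild-type level, whereas in NAMPT flox 26.5 and 25.1 CPM remained.

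**Figure D5:**
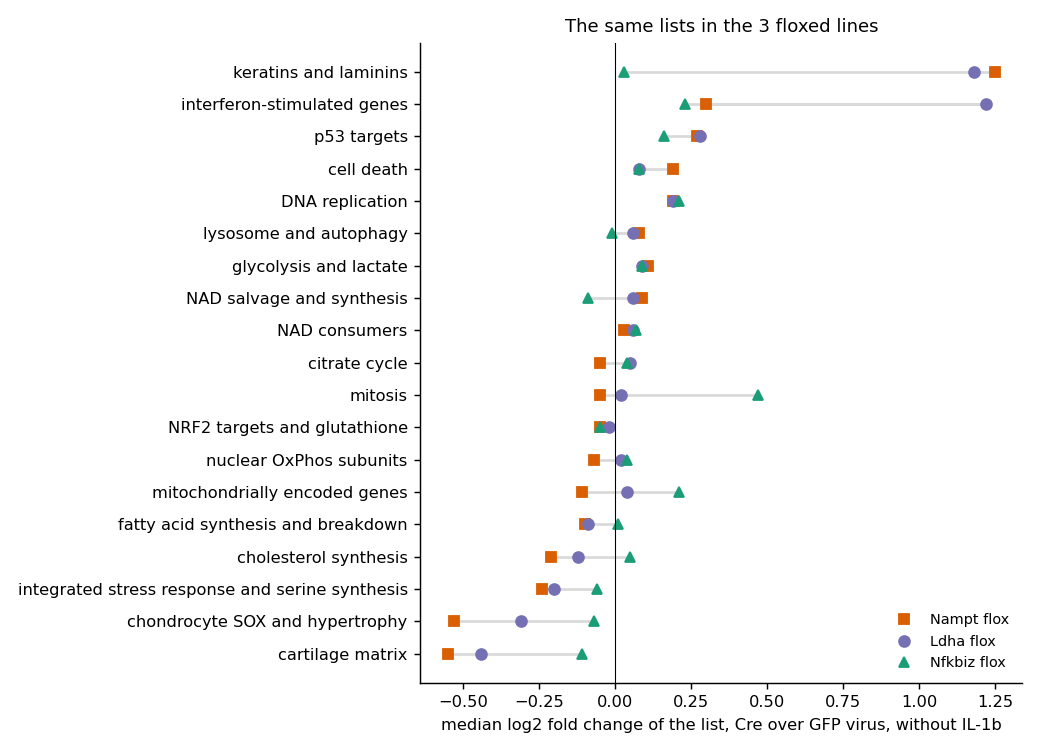
Median log2 fold change after Cre (x axis) of the same 19 gene lists (y axis) in NAMPT flox (squares), LDHA flox (circles) and NFKBIZ flox (triangles), the last 2 from the fit of 24 libraries. Cartilage matrix runs from -0.55 to -0.11 and mitosis from -0.05 to 0.47, with NFKBIZ flox at the upper end of both.

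The Cre effect on many genes was different when IL-1b was added, with 5648 genes (35.0%) called for that difference, 18.8% more positive and 16.2% more negative with IL-1b. Nampt was at 69.95 and 71.96 CPM with the GFP virus and 6.05 and 4.88 CPM with Cre under IL-1b, a decrease larger by 0.59 on the log2 scale than without IL-1b (edgeR adjusted p = 0.00114).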

How the data were processed

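RNA of 32 mouse chondrocyte libraries was depleted of ribosomal RNA and sequenced, and 4 NAMPT flox libraries without IL-1b are compared here. The authors aligned reads with STAR to the Ensembl release 76 assembly (GRCm38) and counted uniquely aligned, unambiguous reads on 41388 genes with featureCounts (versions 2.0.4b and 1.45 in the submitters' processing notes; the study's methods name others). The authors deposited raw counts, CPM (count over library total) and RPKM (CPM per gene length) for each gene and library; only the counts were tested. Whether counting used the strand is not given in the sources used here.

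Genes over 1 CPM in at least 1 of the 8 NAMPT flox libraries were kept, without 355 genes of ribosomal RNA biotypes. All 8 were fitted with TMM factors and the library set as a block (edgeR 4.0.16, R 4.3.3; 3 residual degrees of freedom), so the spread also comes from the libraries with IL-1b. Printed CPM are divided by the TMM factors (0.9618 and 0.9307 for GFP, 1.0311 and 0.9987 for Cre); wild-type CPM are not. The sets are read from the styles of the sample titles. Set differences correlated at 0.498 to 0.638 over the 6 pairs of groups (9242 genes over 10 CPM), so the sets pair the libraries. Differences between lines were tested in 1 fit of the 24 floxed libraries. The test was tried on simulated counts first. Alternatives were DESeq2 1.42.0, limma 3.58.1 (voomWithQualityWeights, as in the study's methods), other filters, normalization and library subsets. Of 8 wild-type libraries, the 2 untreated ones served as background levels, with totals of 29248326 and 35633350 counts, and 6 were not used.

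Named genes were Nampt, the 10 smallest p-values and 5 largest fold changes in each direction (at least 5 CPM in the higher group), up to 4 smallest p-values in each of 38 lists, and the 5 smallest p-values in each direction for each difference between lines. The members and lists were chosen with earlier results of these data known. Gene symbols come from GENCODE M21 (40340 of the identifiers matched), and promoters from RefSeq GRCm38.p6. Figures were drawn with matplotlib 3.10.9. Counting error is larger in the shallower libraries and for genes with few counts.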

Additional observations from a re-analysis of the deposited data

Results flagged for a closer look

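The Cre effect in NAMPT flox differed from that in another floxed line, by edgeR's test of the difference, for the following named genes, each value being a log2 difference. Against LDHA flox the effect was more negative for Nampt (-3.01), Ibsp (-1.34), Hspa1b (-0.91) and Ifi27 (-0.66), and more positive for Gm13549 (8.06), Ldha-ps2 (4.11), Ldha (3.08), Ngfr (1.26) and Cyfip2 (0.78). Gm13549 was at or under 2.24 CPM in the NAMPT flox libraries and at 0 in both LDHA flox Cre libraries, so its fitted difference depends on the prior count. Against NFKBIZ flox the effect was more negative for Nampt (-3.26), Abi3bp (-1.85), Mest (-1.22), Smpd3 (-1.14) and Hist1h3g (-1.09), and more positive for Tmem130 (7.20), Zan (5.76), Spns2 (3.23), Htra2 (2.81) and Sncg (1.42). For Tmem130, Zan and Htra2 the positive sign means a smaller decrease, since Cre lowered them in both lines.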

How the results depend on the processing

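The count of called genes for Cre against GFP was 4311, 3048 by DESeq2, 2319 (1340 higher, 979 lower) with no replicate block, 2485 (1434 higher, 1051 lower) with 24 libraries in 1 fit, and 2819 to 3103 when 1 library was left out. The difference from LDHA flox (11 genes) gave 5 with no replicate block, 54 with no filter, 46 by voomWithQualityWeights, 4 with the 12 libraries without IL-1b alone, and 3 to 5 when 1 library was left out. That from NFKBIZ flox (765) gave 70 with the set 2 libraries alone and 406 to 470 when 1 library was left out. The difference with IL-1b (5648) gave 3552 with no replicate block. Of 175 called genes named, 146 kept their call under all 13 alternatives and none changed direction. By set, Atp8b5 was at 0.65 in library set 1 alone. A list median moved by at most 0.61, and in 13 cases over the alternatives and single sets a median changed sign, all in the lists of NRF2 targets, clock, early response and inflammatory genes and of erythroid, macrophage and skeletal muscle markers. RLE normalization left the median of all genes at -0.02 and ended no call of a named gene. Genes with few counts are limited by depth, and with 2 libraries a group the spread between them is poorly known.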
